A study of Mus musculus with 30 samples.

Results

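The mRNAs of 10 heat shock proteins were followed in mouse sperm: Hspa1l, Hspa2, Hspa4l and Hspb9, which are germ-cell forms, Hsp90aa1, which is higher in germ cells than in most tissues and was kept apart, and Hspa4, Hspa5, Hspa8, Hspa9 and Hsp90ab1, which are general forms. They were chosen by name, though with earlier results of these data known, and read from the tables of 2 sperm experiments. The table of 24 h held all 10 of them among 15479 mRNAs and lincRNAs. The table of 46 days held 6 among 2478, namely the 4 germ-cell forms and the 2 HSP90 genes. Hspa4, Hspa5, Hspa8 and Hspa9 were not analysed here at 46 days.

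C57Bl/6J males were given tesaglitazar, which activates both PPARα and PPARγ, from 3 months of age at a dose of 10 μg/kg, in 2 intraperitoneal injections per week over 4 weeks (TESA), and control males received the vehicle, DMSO in saline (CTRL). Sperm had been let swim out of the cauda epididymis and treated with a lysis buffer for somatic cells. It was collected 46 days after the last injection (7 TESA and 7 CTRL libraries of total RNA depleted of rRNA) or 24 h after it (4 TESA and 4 CTRL libraries of polyadenylated RNA). Time and library type therefore cannot be told apart, and each table was normalised on its own. For 46 days the paper's figure legend counts fewer tesaglitazar-injected males than the 7 TESA libraries. It does not name a library left out, so all 7 were used. Libraries held 4538101 to 13513801 counts at 46 days and 15337517 to 27709918 at 24 h. Libraries are named by group and number. TESA library 2 at 46 days was the shallowest outside the 5 most abundant features, with 158820 counts against up to 7119414 in CTRL library 14.

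Heat shock proteins of the HSP70 and HSP90 families are chaperones that bind unfolded or maturing proteins and release them with the use of ATP, while small heat shock proteins hold unfolding proteins without ATP. Male germ cells make forms of their own during meiosis and spermiogenesis, and loss of Hspa2 in the mouse arrests spermatocytes in meiosis. Mature sperm make little or no new RNA, so mRNAs found in them can date from the stages before.

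No member passed the test of TESA against CTRL at either time. In edgeR's quasi-likelihood test 0 of 6 members passed an adjusted p of 0.05 at 46 days, where 0% of 2279 tested genes passed, and 0 of 10 passed at 24 h, where 0% of 13106 passed. At an unadjusted p under 0.05, 1 of 6 members stood at 46 days (background 130 of 2279 genes, 5.7%) and 0 of 10 at 24 h (background 313 of 13106, 2.39%). The background at 46 days rests in part on TESA library 12: without it, 70 of 2279 genes stood there, 25 of them above 0, against 112 of the 130. DESeq2 also called 0 genes in each table, while edgeR's exact test called 13 genes at 46 days, no member among them, and 0 at 24 h. The levels of the TESA and CTRL libraries overlapped for each of the 6 members at 46 days and each of the 10 at 24 h. Among all tested genes, 0.0439% did not overlap at 46 days and 3.04% at 24 h. The study's methods count animals, but the labels do not tie each library to a separate male, so p-values measure the spread between libraries.

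**Figure D1:**
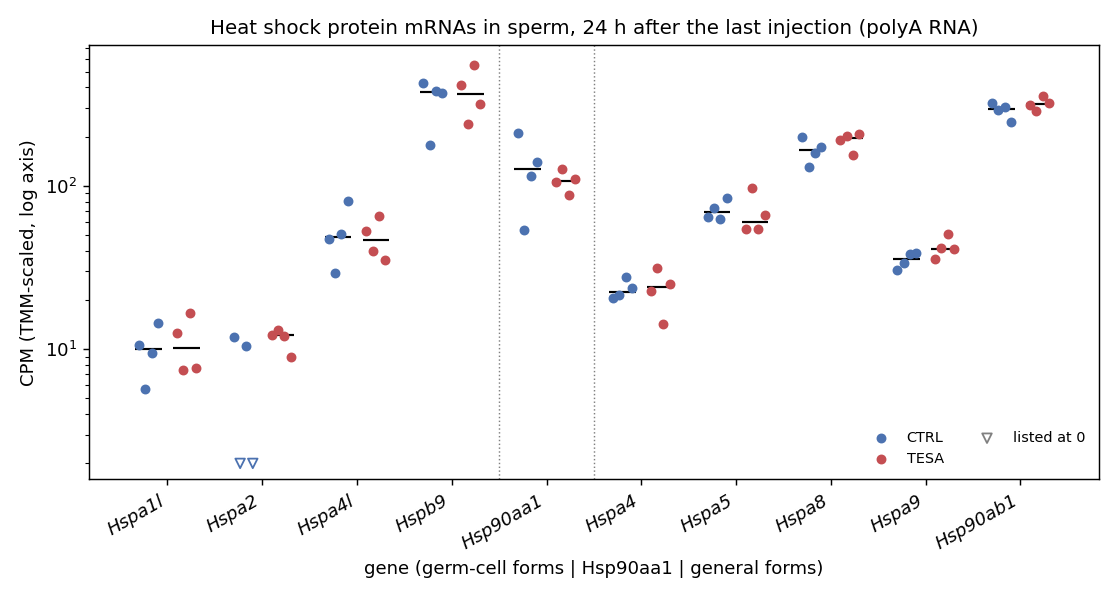
Levels of the 10 members 24 h after the last injection, in TMM-scaled CPM (log axis), 1 point per library (4 CTRL, 4 TESA); black lines are group medians, drawn where every library of the group was above 0. Hspb9 and Hsp90ab1 are the highest, Hspa1l and Hspa2 the lowest, and the groups overlap in each gene.

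Hspb9, a small heat shock protein of the testis, was the most abundant germ-cell form in both tables. Levels are given in CPM, counts scaled by TMM to a common library size. At 24 h it had 413, 240, 546 and 317 CPM in TESA libraries 1, 3, 5 and 7 and 428, 178, 380 and 372 CPM in CTRL libraries 2, 4, 6 and 8. CTRL library 4 was the lowest and TESA library 5 the highest, with the groups overlapping. The log2 fold change of TESA against CTRL was 0.16 (standard error 0.35). It took 21.8% to 40.3% of the counts of the 10 members and was the highest of them in 5 of 8 libraries, Hsp90ab1 being the highest in the other 3. At 46 days its lowest, median and highest levels were 23.3, 28.5 and 39.5 CPM in TESA and 16.1, 31.2 and 34.6 CPM in CTRL, and its log2 fold change was 0.10 (standard error 0.18). Levels at 46 days rest on TMM factors from 0.098 in TESA library 2 to 8.15 in CTRL library 14. By library totals Hspb9 ran from 2.28 CPM in TESA library 2 to 278 CPM in CTRL library 14. At 46 days Hspb9 was the highest of the 6 members in 13 of 14 libraries. Counts are not divided by transcript length, so these orders are orders of counts. Hspb9 spans 647 bases of the genome (GRCm38.p6, chr11:100713929-100714575), which is less than any other member spans.

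Hspa1l, an HSP70 of spermatids, was among the lowest. At 24 h it had 12.6, 7.44, 16.8 and 7.66 CPM in TESA libraries 1, 3, 5 and 7 and 10.6, 5.74, 9.41 and 14.4 CPM in CTRL libraries 2, 4, 6 and 8. CTRL library 4 was again the lowest and TESA library 5 the highest, and the log2 fold change was 0.14 (standard error 0.38). At 46 days the lowest, median and highest levels were 2.37, 2.87 and 5.02 CPM in TESA and 2.61, 3.29 and 4.95 CPM in CTRL, and its log2 fold change was -0.12 (standard error 0.23). These rest on few reads, 4 to 258 counts per library. Hspa1l lies beside Hspa1a on chromosome 17, and how far Salmon moved reads among the related genes Hspa1l, Hspa1a, Hspa1b and Hspa8 was not tested.

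Hspa2, the HSP70 of spermatocytes, could not be compared at 24 h in the same way, because it was listed at 0 in 2 of the 8 libraries. It had 12.2, 13.0, 12.1 and 8.99 CPM in TESA libraries 1, 3, 5 and 7 and 11.9, 0, 10.5 and 0 CPM in CTRL libraries 2, 4, 6 and 8. The 6 libraries above 0 held 143 to 392 counts, and of 3957 genes with at least 100 counts in these 6 libraries, 3 were listed at 0 in both of the others: Hspa2, Elp3 and Zc3h13. The log2 fold change was 1.05 (standard error 1.31) with all libraries and 0.05 (standard error 0.33) without CTRL libraries 4 and 8. Whether the estimation of counts gave these zeros was not tested. At 46 days no library was at 0 for Hspa2: the lowest, median and highest levels were 1.70, 5.02 and 6.43 CPM in TESA and 2.21, 3.48 and 7.56 CPM in CTRL, and its log2 fold change was 0.10 (standard error 0.32).

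Hspa4l, an HSP110 of germ cells, stood between Hspb9 and the germ-cell HSP70 genes. At 24 h it had 52.6, 40.0, 65.6 and 35.0 CPM in TESA libraries 1, 3, 5 and 7 and 47.0, 29.1, 50.8 and 81.2 CPM in CTRL libraries 2, 4, 6 and 8. CTRL libraries were both the lowest (4) and the highest (8), and the log2 fold change was -0.11 (standard error 0.33). At 46 days the lowest, median and highest levels were 8.71, 9.98 and 17.4 CPM in TESA and 2.81, 10.3 and 12.7 CPM in CTRL, and its log2 fold change was 0.24 (standard error 0.27). The highest was TESA library 12 and the lowest CTRL library 13. Without the former the log2 fold change was 0.07 and without the latter 0.08.

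The HSP90 genes encode 2 cytosolic forms, Hsp90aa1, which is also induced by heat, and Hsp90ab1, which is made constitutively. At 24 h Hsp90ab1 varied least of the 10 members, with 311, 288, 355 and 319 CPM in TESA libraries 1, 3, 5 and 7 and 322, 289, 302 and 245 CPM in CTRL libraries 2, 4, 6 and 8. Its coefficient of variation over the 8 libraries was 10.5%, and the log2 fold change was 0.14 (standard error 0.21). Hsp90aa1 had 105, 127, 87.2 and 111 CPM in the TESA libraries and 209, 53.3, 114 and 139 CPM in the CTRL libraries in the same order. All 4 TESA libraries lay inside the range of CTRL, which ran from library 4 to library 2, and the log2 fold change was -0.26 (standard error 0.36). It was 0.09 without CTRL library 2 and -0.50 without CTRL library 4. The inducible HSP70 gene Hspa1a had its lowest and highest levels in the same libraries, 47.1 CPM in CTRL library 4 and 193 CPM in CTRL library 2. Hspa1b was also highest in CTRL library 2 (223 CPM), but lowest in TESA library 5 (61.0 CPM), with 66.1 CPM in CTRL library 4.

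**Figure D2:**
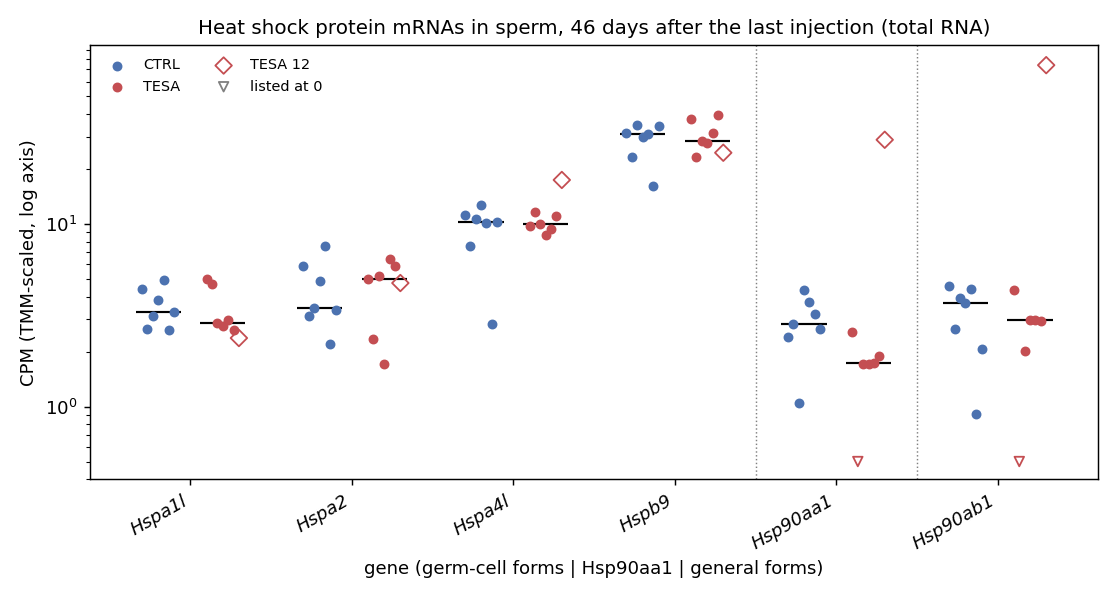
Levels of the 6 members 46 days after the last injection, in TMM-scaled CPM (log axis), 1 point per library (7 CTRL, 7 TESA), with group medians as black lines and TESA library 12 as open diamonds. Without that library Hsp90aa1 stays at or below 4.35 CPM and Hsp90ab1 at or below 4.59 CPM.

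At 46 days, in TMM-scaled levels, both HSP90 genes were set apart by a single library. Hsp90ab1 had a lowest, median and highest level of 0, 2.97 and 73.9 CPM in TESA and 0.905, 3.69 and 4.59 CPM in CTRL. Hsp90aa1 had 0, 1.73 and 28.9 CPM in TESA and 1.04, 2.83 and 4.35 CPM in CTRL. The high value was TESA library 12 in both genes (187 counts of Hsp90ab1 and 73 of Hsp90aa1), and the 0 was the shallow TESA library 2. The log2 fold change of Hsp90ab1 was 1.99 (standard error 0.86, unadjusted p = 0.0347, adjusted p = 0.773 in edgeR's quasi-likelihood test) and was -0.15 without TESA library 12. That of Hsp90aa1 was 0.85 (standard error 0.70) and was -0.70 without it (standard error 0.31, unadjusted p = 0.0407, adjusted p = 0.999 in edgeR's test). The 1 member under an unadjusted p of 0.05 thus changed from Hsp90ab1, above 0, to Hsp90aa1, below 0, with this library left out. DESeq2, which replaces counts that it takes for outliers, gave -0.11 for Hsp90ab1 and -0.60 for Hsp90aa1.

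TESA library 12 was not high in the other members besides Hspa4l. It had 2.37 CPM of Hspa1l, the lowest of the 14 libraries, 4.74 CPM of Hspa2 and 24.5 CPM of Hspb9, while Hspa1a, the inducible HSP70, was at 0.790 CPM, or 2 counts. It was the highest of the 14 libraries in 3 of the 6 members, in 7 of 26 tested chaperone genes outside the members (26.9%) and in 609 of all 2279 tested genes (26.7%). It was the lowest in 611 of them (26.8%), so it was extreme in both directions. Its late spermatid markers summed to 441 CPM, below the 6 other TESA libraries, which had 549 to 904 CPM. CTRL library 13 had less, 359 CPM, with 0.905 CPM of Hsp90ab1. Whether the low marker sum of TESA library 12 bears on its HSP90 levels was not tested. Marker genes of leukocytes (12), epididymal epithelium (12), blood (5), smooth muscle (5) and liver (6) had no row among those used at 46 days, so the part of other cells in its HSP90 levels was not tested.

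The general HSP70 and HSP110 forms were measured at 24 h. Hspa8, the constitutive cytosolic HSP70, had 190, 202, 155 and 207 CPM in TESA libraries 1, 3, 5 and 7 and 199, 130, 158 and 173 CPM in CTRL libraries 2, 4, 6 and 8, and its log2 fold change was 0.19 (standard error 0.22). Hspa5, the HSP70 of the endoplasmic reticulum, had 54.5, 96.9, 54.5 and 66.0 CPM in TESA and 64.8, 73.5, 62.6 and 84.5 CPM in CTRL, and its log2 fold change was -0.07 (standard error 0.24). The groups overlapped in both genes. Hspa9, the HSP70 of mitochondria, ranged from 30.3 to 50.4 CPM, and its 3 highest libraries were TESA, with 35.4 to 50.4 CPM in TESA against 30.3 to 39.0 in CTRL. Its log2 fold change of 0.26 (standard error 0.20) did not pass the test. Hspa4, the general HSP110 related to Hspa4l, ranged from 14.2 CPM in TESA library 5 to 31.3 CPM in TESA library 3, and its log2 fold change was -0.0014 (standard error 0.26).

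Ratios of counts within a library need no scaling between libraries, though without transcript lengths a ratio says nothing of which of a pair has more molecules. Hspa4l over Hspa4 had a mean log2 ratio of 1.07 ± 0.67 (SD, n = 8) and was above 0 in 8 of 8 libraries, and Hspa1l over Hspa8 one of -4.12 ± 0.55 (SD, n = 8), below 0 in each of them. Hsp90aa1 over Hsp90ab1 had -1.45 ± 0.60 (SD, n = 8) at 24 h and -0.39 ± 0.90 (SD, n = 13) at 46 days, without TESA library 2, which had 0 counts of both and so carries no ratio. Hspa1l over Hspa2 had -0.29 ± 0.61 (SD, n = 14) at 46 days and, in the 6 libraries of 24 h with Hspa2 above 0, lay between -0.81 and 0.47. The counts of these germ-cell HSP70 genes were thus of a like size, and each took a small share of the counts of the members. Together the 4 germ-cell forms took 26.1% to 47.2% of the counts of the 10 members at 24 h, mostly through Hspb9.

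None of these ratios passed the test of TESA against CTRL. The difference of the mean log2 ratios, TESA minus CTRL, was -0.06 for Hspa1l over Hspa8 (two-sided exact permutation test, p = 0.943), -0.01 for Hspa4l over Hspa4 (exact p = 1) and -0.26 for Hsp90aa1 over Hsp90ab1 (exact p = 0.571) at 24 h. At 46 days it was -0.14 for Hspa1l over Hspa2 (exact p = 0.692) and -0.56 for Hsp90aa1 over Hsp90ab1 (exact p = 0.258), or -0.67 (exact p = 0.204) without TESA library 2. In libraries 1 to 10 alone the difference at 46 days was 0.27 for Hspa1l over Hspa2 and 0.0351 for Hsp90aa1 over Hsp90ab1. The latter enters TESA library 2, with 0 counts of both genes, as a ratio of 0, and its sign rests on that entry. TESA libraries 1, 3, 4 and 5 had log2 ratios of -0.75, -0.24, -0.77 and -0.74. CTRL libraries 6 to 10 had -0.90, 0.09, -1.86, 0.23 and -0.24. The zeros of Hspa2 set both ratios with Hspa2 at 24 h, 4.22 over Hspa8 and -4.28 under Hspa1l, each with exact p = 0.229. Adjusted over the 7 ratios, each exact p was 0.601 or more. The smallest p that 4 against 4 libraries allow is 0.0286.

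The difference of the tesaglitazar effect between the experiments was tested for the 6 members measured in both, in 1 edgeR model of all 22 libraries. At an adjusted p of 0.05, 0 of 6 members passed and 0% of 2154 genes did. At an unadjusted p under 0.05 stood 210 of the genes (9.75%) and 0 of the members. Hsp90ab1 had a difference of log2 fold changes, 46 days minus 24 h, of 1.85 (standard error 1.11, adjusted p = 0.599 in edgeR's quasi-likelihood test), which was -0.27 without TESA library 12. For Hspb9 the difference was -0.06 (standard error 0.37).

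The relation of the members to markers of late spermatids was examined after the values had been seen, over the libraries of both groups pooled. At 24 h, Hspa1l, Hspa4l and Hspb9 followed the summed level of 12 late spermatid markers, of which Odf1, a sperm tail protein, was the most abundant (978 to 3377 CPM). Hspa2, the other germ-cell form, did not (Pearson's r = 0.262, exact permutation p = 0.572). The marker sum was 9494, 5115, 10504 and 6555 CPM in TESA libraries 1, 3, 5 and 7 and 8336, 3429, 8775 and 11516 CPM in CTRL libraries 2, 4, 6 and 8. CTRL library 4, the lowest in Hspa1l, Hspa4l and Hspb9, was also the lowest in the markers. It was the lowest in 6 of the 10 members (in Hspa2 level with library 8 at 0) and in the leukocyte (1244 CPM), epididymal (1277 CPM) and blood (53.5 CPM) sums, but not in that of smooth muscle (32.5 CPM). Over all 13106 tested genes it was the lowest in 16.7% and the highest in 16.0%, and CTRL library 2 and TESA library 5 were the lowest more often (20.9% and 17.4%).

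On log2 CPM over the 8 libraries, Hspa1l had Pearson's r = 0.926 (exact permutation p = 0.000347, adjusted p = 0.00278) and Spearman's rho = 0.952 (exact p = 0.00114, adjusted p = 0.00608) with the late spermatid sum. Hspa4l had r = 0.911 (exact p = 0.00107, adjusted p = 0.00569) and rho = 0.976 (exact p = 0.000397, adjusted p = 0.00317). Hspb9 had r = 0.923 (exact p = 0.00179, adjusted p = 0.00714), while its rho of 0.690 did not pass (exact p = 0.0694, adjusted p = 0.250). Without the 2 libraries farthest from the median marker level, r was 0.912 for Hspa1l, 0.983 for Hspa4l and 0.565 for Hspb9 (exact p = 0.0153, 0.00139 and 0.224, adjusted p = 0.0815, 0.0111 and 0.492). Without CTRL library 4 alone, r was 0.903, 0.876 and 0.821 in the same order (exact p = 0.00397, 0.00913 and 0.0228, adjusted p = 0.0397, 0.0456 and 0.0761). Hspa4l alone passed in both. Hspa1l lost its call in the first with r little changed over fewer libraries, and Hspb9 lost it in both with a lower r. The general forms gave r from -0.42 (Hspa5) to 0.277 (Hspa9), and Hsp90aa1 0.535 (exact p = 0.183, adjusted p = 0.366). These values were not steady. Without CTRL library 4, Hspa8 had r = -0.68 (exact p = 0.0897, adjusted p = 0.224) and Hsp90aa1 -0.11, and with library totals the general forms had r from 0.272 to 0.645, against a median of 0.314 over all tested genes outside the markers. None of them passed on r, and on rho Hspa9 did with library totals (0.786, exact p = 0.0279, adjusted p = 0.0447). Of 13094 tested genes outside the markers, 4.48% had an r of at least 0.8, and the median r was -0.01. All values of a library share its scaling factor, and 16 relations were tested over both tables.

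**Figure D3:**
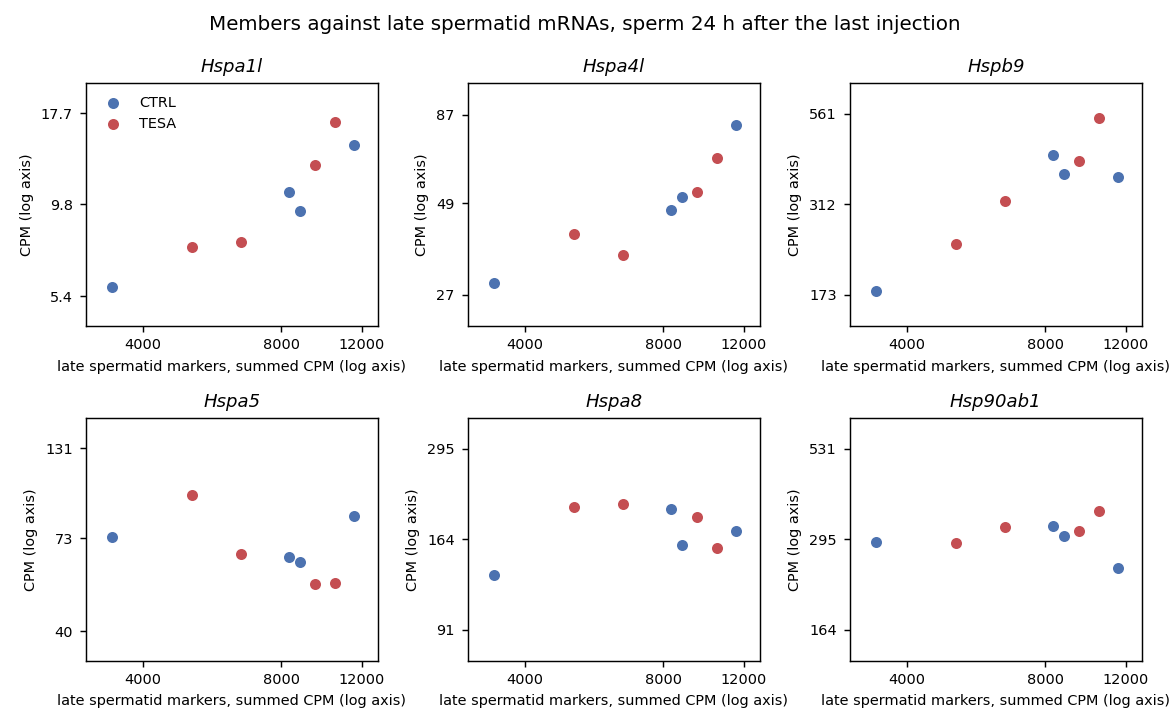
Level of 3 germ-cell forms (upper row) and 3 general forms (lower row) against the summed level of late spermatid markers, 24 h after the last injection, both in TMM-scaled CPM on log axes, 1 point per library. In these levels Hspa1l, Hspa4l and Hspb9 climb with the markers (r of 0.926, 0.911 and 0.923), and Hspa5, Hspa8 and Hsp90ab1 do not (r of -0.42, 0.274 and 0.0731). The germ-cell form Hspa2 (r = 0.262) and the general forms Hspa4 (-0.32) and Hspa9 (0.277) are not drawn. The contrast depends on the scaling: by library totals Hspa5, Hspa8 and Hsp90ab1 had r of 0.272, 0.640 and 0.602, none passing. Hspa1l, Hspa4l and Hspb9 then had 0.957, 0.949 and 0.954.

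At 46 days, Hspb9 followed the late spermatid markers again, with r = 0.937 and rho = 0.943 over 14 libraries (permutation p = 1e-05, the smallest that 100000 permutations can give, and 2e-05, adjusted p = 0.00016 and 0.00032). Of 2267 tested genes outside the markers, 2.69% had an r of at least 0.8 and 0.970% of at least 0.9, with a median of 0.211. Hspb9 kept r = 0.911 without the 2 libraries farthest from the median, and in libraries 1 to 10 alone, apart from 11 to 14, r was 0.883 (permutation p = 0.00045). At 46 days Prm2, a protamine, was the most abundant marker (69.7 to 244 CPM). In libraries 1 to 10 alone Hsp90ab1 passed too, with r = 0.692 and rho = 0.879 (permutation p = 0.00529 and 0.00152, adjusted p = 0.0159 and 0.00456). Over all 14 libraries the other 5 members did not pass: r was 0.446 for Hspa1l (permutation p = 0.107), 0.465 for Hspa2, 0.427 for Hspa4l, -0.28 for Hsp90aa1 and -0.03 for Hsp90ab1. Without TESA library 12, r was 0.754 for Hspa4l (permutation p = 0.0202, adjusted p = 0.0606), whose rho was 0.297 and whose lowest library, CTRL 13, was also the lowest in the markers. The r was 0.562 for Hspa2 (permutation p = 0.0415, adjusted p = 0.0726) and 0.598 for Hsp90ab1 (permutation p = 0.0484, adjusted p = 0.0726). In libraries 1 to 10 alone r was 0.141 for Hspa4l. With library totals in place of TMM all 6 members passed, but so scaled the median r of these 2267 genes was 0.960. At 24 h Hspa2, with its zeros, had r = 0.262. It was -0.50 without CTRL library 4 and -0.53 without the 2 libraries farthest from the median marker level (exact permutation p = 0.223 and 0.324). In bulk RNA, fewer cells of a kind and less RNA per cell cannot be told apart.

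Markers of other cells were also found at 24 h. All 12 leukocyte markers had a row (Cd52 the highest, 1029 to 2382 CPM, a gene that epididymal epithelium also expresses), as did 8 of 12 epididymal markers (Spink8 the highest, 524 to 889 CPM), 4 of 5 of blood (Hba-a2 the highest, 20.5 to 98.2 CPM) and 5 of 5 of smooth muscle (Tagln the highest, 4.34 to 19.4 CPM). None of the 6 liver markers had a row. The summed leukocyte level was 1320 to 2612 CPM in TESA and 1244 to 2105 CPM in CTRL, the epididymal sum 1424 to 2053 and 1277 to 3168 CPM, the blood sum 64.7 to 147 and 53.5 to 270 CPM, and the sum of smooth muscle 26.8 to 77.3 and 11.9 to 35.6 CPM. The groups overlapped in each. General chaperones are made by these cells too, and how much of their mRNA came from cells other than sperm was not tested.

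The wider chaperone network was read from a list of 127 other genes. At 24 h, 120 had a row and 114 were tested; 52 had a log2 fold change above 0 and 62 below, with a median of -0.07 against -0.01 over all tested genes, and 0 passed an adjusted p of 0.05. With library totals 78 were above 0 and 36 below (median 0.12 against 0.21). At an unadjusted p under 0.05 there were 2 (1.75% of the list, background 2.39%). The smallest p above 0 belonged to Clpp, a mitochondrial protease (log2 fold change 0.85, standard error 0.31, adjusted p = 1.00 in edgeR's test), Hyou1, an HSP110 of the endoplasmic reticulum (1.31, standard error 0.67), and Hspbp1, a regulator of HSP70 (0.65, standard error 0.33). Below 0 they belonged to the J-domain gene Dnajc9 (-0.79, standard error 0.33), Calr3, a calreticulin of the testis (-0.76, standard error 0.39), and Pdia6, a disulfide isomerase (-0.39, standard error 0.21). The highest mean levels by counts were those of Odf1 (2309 CPM), Bag1 (355 CPM), Clpb (255 CPM), Dnajb14 (168 CPM) and Hspa1b (112 CPM).

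At 46 days, 29 of the 127 had a row and 26 were tested; 15 had a log2 fold change above 0 and 11 below, with a median of 0.02 against 0.03 over all tested genes, and 0 passed an adjusted p of 0.05. With library totals 1 was above 0 and 25 below (median -0.96 against -1.03). At an unadjusted p under 0.05 there were 3 (11.5% of the list, background 5.7%), and TESA library 12 was the highest library in all 3. Without it there was 1 (3.85%), against 70 of all 2279 tested genes. In libraries 1 to 10 alone there were 0, against 65 of 2279. The 3 were Canx, the membrane lectin chaperone of the endoplasmic reticulum (log2 fold change 2.61, standard error 0.93), Pdia3, its partner disulfide isomerase (2.39, standard error 0.87), and Cct2, a chaperonin subunit (1.36, standard error 0.59). TESA library 12 had 71.9 CPM of Canx and the other 13 libraries at most 3.49, and it had 45.8 CPM of Pdia3 and the others at most 3.49. Without it the log2 fold changes were -0.12 for Canx, 0.21 for Pdia3 and 0.50 for Cct2, and 11 of the 26 genes were above 0. Below 0 the smallest p belonged to Hyou1 (-0.29, standard error 0.16), Dnajb2 (-0.21, standard error 0.17) and Dnajc11 (-0.25, standard error 0.30). The highest mean levels by counts were those of Clpb (106 CPM), Odf1 (99.6 CPM), Dnajb2 (96.9 CPM), Trap1 (42.4 CPM) and Unc45a (32.4 CPM).

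RefSeq promoters (GRCm38.p6, 250 bases before to 50 after the start) matched 6 of the 10 members: Hspa1l, Hspa2, Hspa4l, Hspb9, Hspa4 and Hspa5. The heat shock element GAANNTTC, searched on both strands, was in 0 of the 6 and in 7.95% of all 27025 promoters, and it was in those of the inducible genes Hspa1a and Hspa1b, 104 bases before the start. TGACG, the core of cyclic AMP response elements, was in 5 of the 6, against 21.0% of all promoters, and 71 bases before the start in Hspa1l. The GC box GGGCGG was in 5 of the 6 (35.9% of all promoters), CCAAT in 3 (37.9%) and TATAAA in 0 (14.2%). The element of the endoplasmic reticulum stress response, CCAAT and CCACG with 9 bases between them, which contains a CCAAT box, was in Hspa5 alone, against 0.13% of all promoters. Hspa1l and Hspa1a lie head to head with 546 bases between them. The 150 bases before the start are shown for the 3 germ-cell forms that followed the spermatid markers at 24 h and, beside them, for Hspa5 and Hspa1a, with these motifs in capitals; a match is not a bound site. The starts are those of the promoter list, and for Hspa2 and Hspa4l they lie inside the gene as RefSeq spans it (Hspa4l from chr3:40744500).
Hspa1l, chr17:34972553-34972702, plus strand: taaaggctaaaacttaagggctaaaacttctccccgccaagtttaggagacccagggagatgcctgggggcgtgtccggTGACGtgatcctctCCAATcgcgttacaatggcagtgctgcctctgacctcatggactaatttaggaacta
Hspa4l, chr3:40745463-40745612, plus strand: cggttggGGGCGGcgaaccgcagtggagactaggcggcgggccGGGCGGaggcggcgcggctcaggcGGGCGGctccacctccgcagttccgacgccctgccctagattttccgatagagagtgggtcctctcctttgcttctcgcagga
Hspb9, chr11:100713779-100713928, plus strand: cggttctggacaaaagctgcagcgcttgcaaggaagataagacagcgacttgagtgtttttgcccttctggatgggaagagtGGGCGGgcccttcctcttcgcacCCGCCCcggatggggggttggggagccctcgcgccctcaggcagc
Hspa5, chr2:34771940-34772089, plus strand: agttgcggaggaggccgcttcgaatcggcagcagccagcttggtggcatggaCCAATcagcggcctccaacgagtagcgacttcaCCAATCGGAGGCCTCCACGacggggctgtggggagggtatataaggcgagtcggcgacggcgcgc
Hspa1a, chr17:34972157-34972306, minus strand: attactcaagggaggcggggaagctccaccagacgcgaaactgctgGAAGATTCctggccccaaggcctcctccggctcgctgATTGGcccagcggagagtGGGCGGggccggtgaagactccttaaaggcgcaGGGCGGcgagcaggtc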

How the data were processed

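The deposited values are estimated counts per gene or repeat family: the authors trimmed single-end reads with Trim Galore 1.16 and quantified them with Salmon 0.11.2 on GRCm38 transcripts, piRNA precursors and repeat families. Counts were rounded to whole numbers and scaled by TMM over all features of a table. Genes with more than 20 counts in at least 6 of 14 libraries (46 days) or 4 of 8 (24 h) were tested in R 4.3.3 with edgeR (version 4.0.16, quasi-likelihood test), and p was adjusted over tested mRNAs and lincRNAs by Benjamini-Hochberg, with a threshold of 0.05. Standard errors were set to give the reported p. DESeq2 1.42.0 was an alternative. Plots and exact tests used Python 3.11.15 (scipy 1.17.1), with 0.5 counts added in ratios and 0.5 CPM in correlations. The fits were tested on simulated data.

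The members and lists were chosen with earlier results of these data known. Genes named were the members, in each table the 3 chaperone genes with the smallest p in each direction and the 5 with the highest mean, and the most abundant gene of each marker list; Hspa1a, Elp3 and Zc3h13 were named after their values were seen. The planned ratio per kilobase could not be made, since transcript lengths were not used here, so levels are by counts. Depth was 4538101 to 27709918 counts per library, and no library was left out of the fits. Serum small RNA was not used here.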

Additional observations from a re-analysis of the deposited data

Results flagged for a closer look

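Of 32 combinations of a member and a group, 3 held a library far from the rest of its group, and all 3 were TESA library 12 at 46 days. The nominal rate is 1 in 20 groups, but the 3 share 1 library and are not independent. The share of all tested genes flagged in the same way is not given here. TESA library 12 was the highest library in 26.7% and the lowest in 26.8% of all 2279 tested genes. It had 73.9 CPM of Hsp90ab1, where the nearest TESA library had 4.35. It had 28.9 CPM of Hsp90aa1, where the nearest had 2.56. It had 17.4 CPM of Hspa4l, where the nearest had 11.6. These levels are scaled by TMM. With library totals TESA library 12 had 23.4, 9.126 and 5.50 CPM of these genes in the same order, and TESA library 11 had 14.1, 9.115 and 53.2 CPM. No difference between the experiments passed the test in any member.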

How the results depend on the processing

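No member passed an adjusted p of 0.05 under any of 288 combinations of a fold change and an alternative, and 5 of 16 fold changes kept their sign in all: Hspa1l at 46 days and Hspa2, Hspa8, Hspa9 and Hsp90ab1 at 24 h. Library totals without TMM moved the median log2 fold change of all genes from 0.03 to -1.03 at 46 days and from -0.01 to 0.21 at 24 h. With edgeR's exact test 13 genes were called at 46 days, and the cause was not tested. In libraries 1 to 10 alone the difference of ratios was 0.27 for Hspa1l over Hspa2 and 0.0351 for Hsp90aa1 over Hsp90ab1. The sign of the latter rests on TESA library 2, which had 0 counts of both HSP90 genes and enters as a ratio of 0. It enters so in the range of Hsp90aa1 over Hsp90ab1 at 46 days below too, except where it was the library left out. Without single libraries the difference of ratios at 46 days ran from -0.34 to -0.0026 for Hspa1l over Hspa2 and from -0.86 to -0.25 for Hsp90aa1 over Hsp90ab1, the first of these without CTRL library 8 (exact p = 0.0309, adjusted p = 0.216). At 24 h it ran from -0.38 to 0.14 for Hspa1l over Hspa8, 2.51 to 5.66 for Hspa2 over Hspa8, -5.72 to -2.41 for Hspa1l over Hspa2, -0.39 to 0.23 for Hspa4l over Hspa4 and -0.63 to -0.02 for Hsp90aa1 over Hsp90ab1. The correlation with late spermatid markers at 46 days was 0.753 for Hsp90aa1 and 0.683 for Hsp90ab1 with library totals, where Hspa1l (0.976), Hspa2 (0.964) and Hspa4l (0.962) passed too and the median of 2267 tested genes outside the markers was 0.960, and 0.692 for Hsp90ab1 in libraries 1 to 10 alone, where it passed (permutation p = 0.00529, adjusted p = 0.0159). The alternatives for correlations and those leaving out 2 libraries together in the fits of each table were chosen after seeing the data; the same for the difference between experiments was planned. No paired analysis was possible because no library number occurs in both groups of a comparison. Ratios per kilobase and their alternatives were not run. Depth limits Hspa1l, Hspa2 and the HSP90 genes at 46 days most, with medians of 27 to 33.5 counts per library.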
